A study of Rattus norvegicus with 10 samples.

Results

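Kidneys of rats fed a choline-deficient diet with corn oil for 6 days, whose labels do not carry the word necrotic, were compared with kidneys of rats fed choline with the same oil. The comparison used 4 of the 10 arrays of the series, chosen by their labels, with 2 arrays a group. All animals were male weanling Wistar rats, and each array held total kidney RNA of 1 pool of 3 animals. The groups are called the deficient kidneys (choline-deficient, corn oil) and the supplemented kidneys (choline-supplemented, corn oil). The other 6 arrays were 2 each of necrotic kidneys (choline-deficient, corn oil, labelled necrotic), of choline-deficient kidneys with fish oil (menhaden) and of choline-supplemented kidneys with fish oil. The protocol lists 4 diets and describes the vegetable fat as corn and hydrogenated oils, so the deficient and the necrotic kidneys share 1 diet, and how animals were sorted between them is not stated. P-values therefore measure the spread between pools, not between single animals.

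Choline is the head group of phosphatidylcholine, the main phospholipid of cell membranes, and its oxidation product betaine donates methyl groups and serves the kidney as an osmolyte. In weanling rats, lack of choline is a classic cause of acute kidney failure, in which the tubules of the cortex become necrotic. The arrays report an RMA log2 intensity for each probe set, so 1 unit is a 2-fold difference, and levels of different genes cannot be ranked against each other on this scale. Differences are given as deficient minus supplemented with a moderated standard error, and "rose" and "fell" mean an adjusted p under 0.05 in a limma fit of all 10 arrays. Kidney identity was clear in all 4 arrays. Slc34a1, the phosphate carrier of the proximal brush border, stood at 13.83 and 13.69 on the deficient arrays, against 14.00 and 14.03 on the supplemented arrays. Aqp2, the water channel of the collecting duct, stood at 12.91 and 12.96 on the deficient arrays and differed from the supplemented arrays by -0.01 ± 0.29.

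A limited set of genes passed, more of them higher than lower in the deficient kidneys. Over all named genes, passed or not, both deficient arrays lay above both supplemented arrays in 26.7% and below them in 26.5%. Kininogens, fibrinogen chains, the injury marker Havcr1, the scavenger receptor Olr1 and stress transcription factors led the rises. Receptors, channels and secreted proteins of the tubule and stroma, such as Casr, Oxgr1 and Sfrp2, led the smaller falls. Of 29214 probe sets 330 passed (1.13%), 261 of them higher (0.893%) and 69 lower (0.236%). Among those with a single gene symbol, 217 probe sets rose and 44 fell, in 255 genes. With each gene represented by its probe set of highest mean, 211 of 14506 genes rose (1.45%) and 44 fell (0.303%), and the median difference of all genes was 0.00. A rise of at least 4-fold was seen in 32 named probe sets, and the largest named fall, that of Sfrp2, was 2.95-fold.

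The choice of array weighed on these counts. Without deficient replicate 1, 415 probe sets were higher and 299 lower, and without deficient replicate 2, 133 were higher and 13 lower. Without supplemented replicate 1, 34 were higher and 6 lower, and without supplemented replicate 2, 31 were higher and 1 lower. Of the 217 named rises, 21 stayed called without each of the 4 arrays in turn, and of the 44 named falls none did. These 21 were Kng2, Kng1, Fga, Fgb, Fgg, Olr1, Atf3, Igfbp1, Socs3, Osmr, Angptl4, Myc, Klf6, Tgif1, Nfkbiz, Tnfrsf12a, Slc34a2, Slc10a2, Prss22, Upp1 and LOC681325. A further 35 rises and 15 falls were called in none of those 4 fits.

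**Figure D1:**
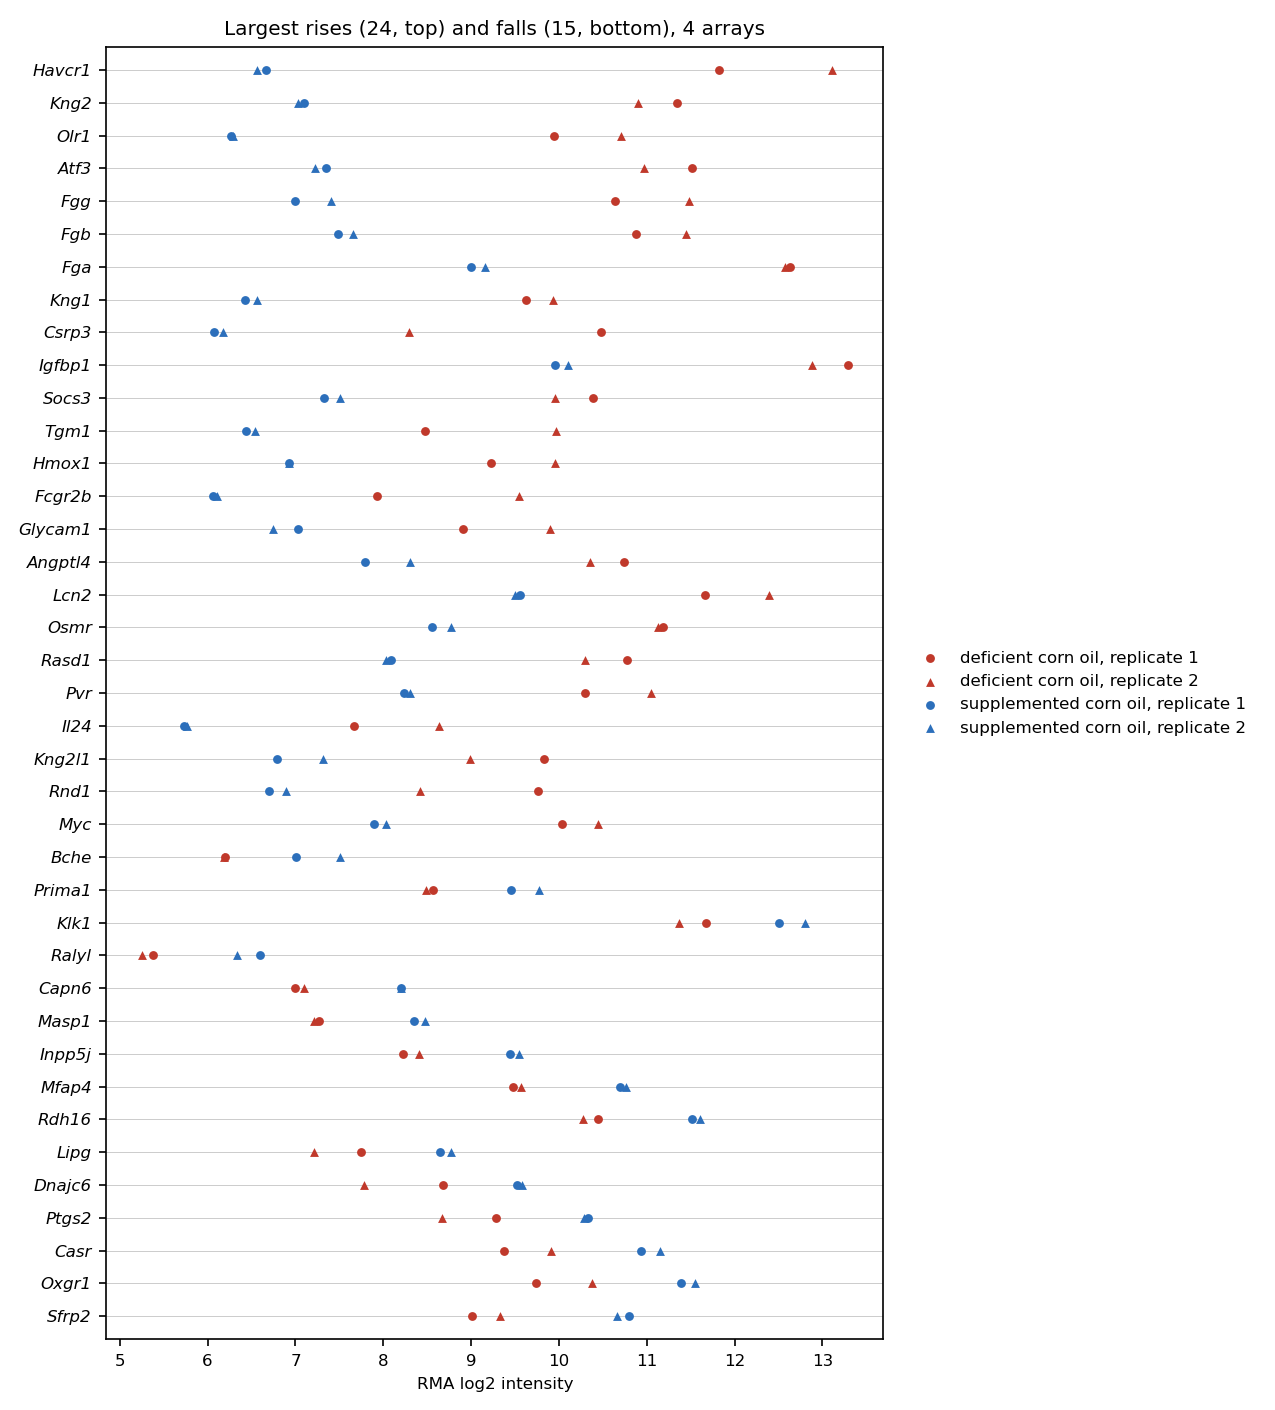
RMA log2 intensity (x axis) of 24 called rises and 15 called falls with a single symbol, those of greatest size, ordered by difference from the largest rise at the top to the largest fall at the bottom. Red points are the deficient arrays and blue points the supplemented arrays, with circles for replicate 1 and triangles for replicate 2. The 2 groups are separate in each gene, as in all 330 called probe sets, which were selected by this same difference. Over all probe sets both deficient arrays lie above both supplemented arrays in 25.7% and below them in 23.8%. The deficient arrays lie apart from each other in Havcr1 (11.82 and 13.11) and Csrp3 (10.48 and 8.29).

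The 3 chains of fibrinogen rose together. Fibrinogen is a clotting protein made mainly by hepatocytes, from alpha, beta and gamma chains encoded by the neighbouring genes Fga, Fgb and Fgg, and its genes respond to interleukin 6 through STAT3 in the acute phase. Fga stood at 12.63 and 12.57 on the deficient arrays, against 9.0 and 9.16 on the supplemented arrays, an 11.5-fold difference (3.52 ± 0.17, adjusted p = 0.000368). Fgb stood at 10.88 and 11.45 on the deficient arrays, against 7.49 and 7.65 on the supplemented arrays (12.1-fold). Fgg stood at 10.64 and 11.48 on the deficient arrays, against 7.0 and 7.40 on the supplemented arrays (14.5-fold). Fga was level in both deficient pools, while Fgb and Fgg were higher in replicate 2. No other member of the 23 measured acute phase genes passed, and the median of the list was 0.14. Lbp, which binds lipopolysaccharide, differed by 1.79 ± 0.42 (adjusted p = 0.1), and Serpina3n, a protease inhibitor, by 2.01 ± 0.68 (adjusted p = 0.231). Alb, albumin, stood at 6.69 and 11.09 on the deficient arrays, against 11.32 and 12.18 on the supplemented arrays. Ttr, transthyretin, stood at 6.25 and 7.96 on the deficient arrays, against 7.82 and 9.02 on the supplemented arrays. Deficient replicate 1 thus held the lowest Alb and Ttr of the 4 arrays beside high fibrinogen, and neither gene passed (adjusted p = 0.306 and 0.335).

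The promoters of the fibrinogen chains are shown because these genes rose together, and those of Olr1, the STAT3-coupled receptor gene Osmr and Tnfrsf12a as examples of rises whose calls held without each array and whose window holds a searched motif (Upp1 and Slc10a2, each with an AP-1 match, are not shown). The sequences are from RefSeq (GRCr8), run from 250 bases before to 50 bases after the gene start, and are written 5′ to 3′ along the gene. The Fgg window holds none of the motifs searched. Capitals mark the AP-1 motif TGANTCA (in Fgb the first match, and in Olr1 and Osmr) and the STAT motif TTCNNNGAA (in Fga, in Tnfrsf12a and as the second match in Fgb).
Fga, chr2:170671919-170672218, plus strand: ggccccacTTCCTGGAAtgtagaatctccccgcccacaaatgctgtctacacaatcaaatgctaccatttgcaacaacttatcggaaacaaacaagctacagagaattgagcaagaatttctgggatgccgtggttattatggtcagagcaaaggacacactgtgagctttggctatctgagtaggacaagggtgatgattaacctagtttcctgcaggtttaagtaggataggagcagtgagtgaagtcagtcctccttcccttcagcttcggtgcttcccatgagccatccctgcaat
Fgb, chr2:170700826-170701125, minus strand: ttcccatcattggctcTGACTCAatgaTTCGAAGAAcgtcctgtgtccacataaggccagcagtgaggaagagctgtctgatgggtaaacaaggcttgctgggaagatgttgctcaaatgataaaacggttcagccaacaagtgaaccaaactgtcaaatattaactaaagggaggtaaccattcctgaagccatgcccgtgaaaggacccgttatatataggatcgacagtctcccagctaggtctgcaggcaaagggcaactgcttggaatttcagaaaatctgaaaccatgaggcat
Fgg, chr2:170652833-170653132, plus strand: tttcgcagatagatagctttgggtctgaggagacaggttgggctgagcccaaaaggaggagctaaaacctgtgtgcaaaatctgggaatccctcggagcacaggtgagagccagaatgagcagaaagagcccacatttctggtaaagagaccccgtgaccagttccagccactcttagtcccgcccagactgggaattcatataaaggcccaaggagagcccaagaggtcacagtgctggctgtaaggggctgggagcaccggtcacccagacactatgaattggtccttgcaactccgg
Olr1, chr4:164634498-164634797, minus strand: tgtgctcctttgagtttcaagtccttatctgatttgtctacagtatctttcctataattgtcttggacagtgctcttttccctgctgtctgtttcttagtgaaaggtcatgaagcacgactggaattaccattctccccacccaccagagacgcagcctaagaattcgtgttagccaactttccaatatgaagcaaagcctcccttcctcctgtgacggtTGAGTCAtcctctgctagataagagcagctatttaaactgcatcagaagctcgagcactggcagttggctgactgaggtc
Osmr, chr2:57688512-57688811, minus strand: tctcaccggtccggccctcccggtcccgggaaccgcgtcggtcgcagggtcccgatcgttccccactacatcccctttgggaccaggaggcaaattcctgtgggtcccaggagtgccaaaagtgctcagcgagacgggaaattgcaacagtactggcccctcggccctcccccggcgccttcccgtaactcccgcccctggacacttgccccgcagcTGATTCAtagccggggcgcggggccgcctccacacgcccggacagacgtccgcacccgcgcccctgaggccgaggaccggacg
Tnfrsf12a, chr10:13213599-13213898, minus strand: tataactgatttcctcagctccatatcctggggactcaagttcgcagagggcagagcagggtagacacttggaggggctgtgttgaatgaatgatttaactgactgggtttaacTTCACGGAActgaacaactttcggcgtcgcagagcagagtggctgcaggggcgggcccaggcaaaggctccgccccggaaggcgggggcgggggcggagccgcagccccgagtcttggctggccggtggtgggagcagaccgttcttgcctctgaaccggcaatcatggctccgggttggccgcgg
The STAT motif lay 242 to 234 bases before the start of Fga, 223 to 215 before that of Fgb and 136 to 128 before that of Tnfrsf12a. The AP-1 motif lay 234 to 228 bases before the start of Fgb, 30 to 24 before that of Olr1 and 33 to 27 before that of Osmr. Each motif reads the same on both strands, and no matches shown overlap. Promoters were matched for 169 of the 211 genes that rose. The STAT motif was in 11.8% of them, against 8.68% of all 27457 promoters, and the AP-1 motif in 12.4%, against 7.33%. The cyclic AMP response motif TGACGTCA was in 2.37%, against 1.91%. Of the 34 matched promoters of the 44 genes that fell, 5.88% held the STAT motif, 14.7% the AP-1 motif and 0 the cyclic AMP response motif. The 27457 promoters were not limited to the 14506 named genes measured on the arrays, from which the rises and falls come. These shares are descriptions of letters in the window.

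Kininogen genes rose, while kallikrein fell. Kininogens are the precursors from which kallikreins release kinins such as bradykinin, and they also inhibit cysteine proteases. Kng2 stood at 11.35 and 10.90 on the deficient arrays, against 7.10 and 7.03 on the supplemented arrays, a 16.7-fold difference. Kng1 stood at 9.62 and 9.93 on the deficient arrays, against 6.43 and 6.56 on the supplemented arrays (9.7-fold). Kng2l1, a kininogen 2-like gene, stood at 9.83 and 8.99 on the deficient arrays, against 6.79 and 7.31 on the supplemented arrays (5.14-fold). Both pools were high for all 3, and signal shared between these similar sequences was not tested. Klk1, tissue kallikrein of the connecting tubule, fell to 11.67 and 11.37 in the deficient kidneys, against 12.51 and 12.80 in the supplemented kidneys (-1.13 ± 0.19, adjusted p = 0.031). Of the 17 measured genes of the pathway 2 rose and 1 fell, with a median of -0.06. Bdkrb2, the constitutive kinin receptor, differed by 0.69 ± 0.15 (adjusted p = 0.0749) and Ace, which degrades bradykinin, by 0.55 ± 0.15 (adjusted p = 0.146). The Kng1 and Kng2 calls held without each array. The Klk1 call remained without deficient replicate 1 and ended without any other array, and that of Kng2l1 remained in 1 of the 4 fits.

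Several markers of tubular injury rose, most of them further in the second pool. Of 27 measured members 10 rose and none fell, with a median difference of 0.82. Havcr1, the phosphatidylserine receptor KIM-1 that injured proximal tubule cells display, stood at 11.82 and 13.11 on the deficient arrays, against 6.67 and 6.56 on the supplemented arrays (57.5-fold). Lcn2, a siderophore-binding protein released by injured tubules, stood at 11.66 and 12.39 on the deficient arrays, against 9.56 and 9.50 on the supplemented arrays. Clu, a secreted chaperone, stood at 11.75 and 12.82 on the deficient arrays, against 10.48 and 10.52 on the supplemented arrays. In each of these the deficient pools lay above both supplemented pools, with replicate 2 the higher. Tnfrsf12a, the receptor of the cytokine TWEAK, was more even, at 10.83 and 11.13 on the deficient arrays, against 8.67 and 8.82 on the supplemented arrays (2.24 ± 0.16, adjusted p = 0.000766). Spp1 (osteopontin), Il24, Lgals3, Krt18, Tgm1 and Fosl1 were the other rises, between 0.91 and 2.73. Krt8 (0.13 ± 0.13), Krt19 (0.07 ± 0.15) and Vcam1 (0.34 ± 0.24) did not pass. Of the 10 rises 10 stayed called without deficient replicate 1, 6 without deficient replicate 2 and 1, Tnfrsf12a, without either supplemented array. For Havcr1 the adjusted p was then 0.0531 without supplemented replicate 1 and 0.0556 without supplemented replicate 2.

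Immediate early genes, the transcription factors and feedback regulators induced first when a cell is stimulated, were higher in both pools. Of 38 measured 12 rose and none fell, with a median of 0.70, and in 33 of 38 both deficient arrays lay above both supplemented arrays, against 26.7% of all named genes. The list was chosen with earlier results of these data known, so this share is a description and not a test. Atf3, a stress-induced repressor, stood at 11.52 and 10.97 on the deficient arrays, against 7.35 and 7.22 on the supplemented arrays (15.6-fold). Myc, a driver of growth and ribosome production, stood at 10.04 and 10.44 on the deficient arrays, against 7.90 and 8.03 on the supplemented arrays (4.84-fold). Klf6, a zinc finger factor induced in injured tubules, stood at 9.96 and 10.19 on the deficient arrays, against 8.46 and 8.42 on the supplemented arrays (3.10-fold). Neither pool was alone in these rises. The AP-1 subunits Junb (1.64 ± 0.22), Jun (0.94 ± 0.13) and Fosl1 (1.61 ± 0.20) rose, and Jund differed by 0.61 ± 0.12 (adjusted p = 0.0625). Ccn1, a matricellular protein, rose by 1.53 ± 0.18, Egr2 by 1.47 ± 0.18 and Ier3 by 1.40 ± 0.15. Egr1 was at 12.32 and 11.58 on the deficient arrays, against 10.02 and 10.54 on the supplemented arrays, and did not pass (adjusted p = 0.0623). Of the 12 rises 11 stayed called without deficient replicate 1, 8 without deficient replicate 2 and 3 (Atf3, Myc and Klf6) without either supplemented array.

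Several genes of the interleukin 6 family and of its STAT3 signal rose, among them ligands, a receptor subunit and a feedback inhibitor. Ligands of this family bind receptor complexes that contain Il6st (gp130), which activate STAT3, and Socs3 is induced by STAT3 and shuts the receptor off. Of 23 measured genes 7 rose and none fell, with a median of 0.67. Among the ligands, Lif stood at 9.27 and 8.68 on the deficient arrays, against 6.90 and 6.73 on the supplemented arrays (4.48-fold). Il6 stood at 6.82 and 5.85 on the deficient arrays, against 4.51 and 4.27 on the supplemented arrays (3.85-fold). Both ligands were higher in deficient replicate 1 than in replicate 2. The receptor subunit Osmr, which binds oncostatin M, stood at 11.18 and 11.13 on the deficient arrays, against 8.56 and 8.77 on the supplemented arrays (2.49 ± 0.16, adjusted p = 0.000494). Stat3 itself stood at 11.97 and 11.80 on the deficient arrays, against 11.12 and 11.11 on the supplemented arrays (1.7-fold). Socs3 stood at 10.39 and 9.95 on the deficient arrays, against 7.33 and 7.51 on the supplemented arrays (6.74-fold). Osmr and Socs3 were high in both pools to a similar degree. The acute phase transcription factors Cebpd and Cebpb rose by 1.25 ± 0.15 and 1.24 ± 0.19. Il11 stood at 7.03 and 8.18 and Clcf1 at 7.24 and 8.30 on the deficient arrays, with supplemented arrays between 6.26 and 6.50, and neither passed (adjusted p = 0.0932 and 0.108). Without supplemented replicate 1 or 2, Osmr and Socs3 were the 2 members still called, and Stat3 was called in none of the 4 fits. Il6st, the shared part of the receptor complexes, differed by 0.52 ± 0.13 and did not pass (adjusted p = 0.117).

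Cytokine, adhesion and NF-kB target genes and several chemokines were higher as well. Of 29 measured cytokine, adhesion and NF-kB target genes 12 rose and none fell (median 0.71), and of 29 chemokine genes 6 rose and none fell (median 0.67). Olr1, a scavenger receptor for oxidised lipoprotein, stood at 9.94 and 10.71 on the deficient arrays, against 6.27 and 6.29 on the supplemented arrays (16.5-fold). Icam1, to which leukocytes adhere, stood at 10.06 and 9.85 on the deficient arrays, against 8.43 and 8.41 on the supplemented arrays (2.89-fold). Nfkbiz, an inducible cofactor of NF-kB, stood at 9.45 and 9.57 on the deficient arrays, against 7.79 and 7.87 on the supplemented arrays (3.20-fold). In each of these genes the groups lay further apart than the arrays within a group, which is what a call selects for. Il1rn, the antagonist of the interleukin 1 receptor, rose by 1.82 ± 0.20, Irf1 by 1.57 ± 0.26, the survival factor Bcl2a1 by 1.34 ± 0.16 and the macrophage growth factor Csf1 by 1.14 ± 0.14. Among the chemokines, Cxcl11 and Cxcl10, which attract T cells through Cxcr3, rose by 1.65 ± 0.26 and 1.30 ± 0.16. Ccl7, Ccl4, Ccl3 and Ccl6 rose by between 0.94 and 1.14. Ccl12 was higher in the first pool, at 7.98 and 6.91 on the deficient arrays, against 6.04 and 5.91 on the supplemented arrays, and did not pass (adjusted p = 0.0657). No chemokine stayed called without either supplemented array, and of the 12 cytokine list rises 2 stayed called without each array, Olr1 and Nfkbiz.

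Ligands and a receptor of the epidermal growth factor family, which signal repair in tubule cells, were among the rises. Hbegf, the heparin-binding ligand, stood at 9.66 and 9.16 on the deficient arrays, against 7.50 and 7.47 on the supplemented arrays (3.78-fold). Areg, amphiregulin, stood at 7.33 and 7.29 on the deficient arrays, against 6.52 and 6.54 on the supplemented arrays (1.71-fold). Their receptor Egfr stood at 9.35 and 9.87 on the deficient arrays, against 8.47 and 8.51 on the supplemented arrays (2.18-fold). These were the 3 called of 13 measured members (median 0.34), none fell, and Btc, another ligand, differed by -0.58 ± 0.13 (adjusted p = 0.0906). Without deficient replicate 1, 2 of the 3 stayed called, without deficient replicate 2 it was 1, and without either supplemented array it was 0.

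Regulators of clotting and fibrinolysis rose in the kidney beside fibrinogen. Of 28 measured genes of coagulation and plasminogen 4 rose and none fell (median 0.23). F3, tissue factor, the trigger of clotting, stood at 11.56 and 11.75 on the deficient arrays, against 10.39 and 10.47 on the supplemented arrays (2.34-fold). Plaur, the urokinase receptor, rose by 1.69 ± 0.17, Thbs1, thrombospondin 1, by 1.19 ± 0.11 and Tfpi2, a protease inhibitor, by 1.01 ± 0.17. Of 20 measured complement genes 1 rose and 1 fell, where 1.45% of all named genes rose and 0.303% fell. Their median was 0.27. Both deficient arrays lay above both supplemented arrays in 10 of them and below in 3, against 26.7% and 26.5% of all named genes. Cfi, which inactivates C3b, rose by 0.95 ± 0.14, and Masp1, a protease of the lectin pathway, fell to 7.27 and 7.21 in the deficient kidneys, against 8.35 and 8.47 in the supplemented kidneys (-1.17 ± 0.12, adjusted p = 0.00525), with 18 other measured members not called. Fcnb, ficolin B, a lectin that activates this pathway, stood at 10.20 and 10.87 on the deficient arrays, against 8.32 and 8.41 on the supplemented arrays (4.49-fold). Without supplemented replicate 1 none of these coagulation and complement list members stayed called. Without supplemented replicate 2, 2 coagulation genes and 0 complement genes did.

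Genes of the amino acid response, which the transcription factor ATF4 controls when amino acids run short or the endoplasmic reticulum is stressed, rose without the chaperones of the unfolded protein response. Of 29 measured amino acid response genes 8 rose and none fell (median 0.52). Asns, asparagine synthetase, stood at 10.08 and 10.37 on the deficient arrays, against 8.47 and 8.75 on the supplemented arrays (3.06-fold). The amino acid carriers Slc7a1 and Slc7a5 rose by 1.43 ± 0.14 and 1.42 ± 0.17. The higher of 2 probe sets of Mthfd2, a mitochondrial folate enzyme, rose by 1.33 ± 0.19, and the glutathione-degrading enzyme Chac1 by 1.33 ± 0.15. Ppp1r15a, Trib3 and Atf4 rose by 1.22 ± 0.18, 1.05 ± 0.18 and 0.84 ± 0.13. Of 21 chaperone and related genes of the unfolded protein response 0 passed (median -0.08), the smallest adjusted p being that of Atf6 at 0.316. Heat shock genes had 0 of 18 called (median -0.14), p53 targets 0 of 21 (median 0.32) and cell death and inflammasome genes 0 of 25 (median 0.16). At an unadjusted p under 0.05, limma passed 1 of the unfolded protein response genes, 1 heat shock gene, 10 p53 targets and 7 cell death genes, against 15.2% of all probe sets. The cell cycle inhibitor Cdkn1a stood at 10.01 and 10.66 on the deficient arrays, against 9.24 and 9.41 on the supplemented arrays, without passing (adjusted p = 0.121). Of the 8 amino acid response rises 7 stayed called without deficient replicate 1, 5 without deficient replicate 2, Chac1 alone without supplemented replicate 1 and Slc7a1 alone without supplemented replicate 2.

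A few genes of oxidant and metal defence rose, while most of their pathways did not pass. Hmox1, which breaks down heme, stood at 9.23 and 9.95 on the deficient arrays, against 6.93 and 6.93 on the supplemented arrays (6.30-fold). Slc7a11, the cystine carrier that feeds glutathione synthesis, stood at 7.13 and 7.52 on the deficient arrays, against 5.10 and 5.16 on the supplemented arrays (4.59-fold). With Srxn1 (1.08 ± 0.15) these were the 3 called of 31 measured NRF2 targets, whose median was -0.03. Mt1, a metallothionein that binds zinc and copper, rose by 1.14 ± 0.12, and Slc39a14, a zinc and iron importer, by 1.11 ± 0.15, 2 of 13 metal genes (median 0.34). Outside these lists Gpx2, a glutathione peroxidase, stood at 12.29 and 12.56 on the deficient arrays, against 11.29 and 10.92 on the supplemented arrays. For Hmox1, Srxn1 and Gpx2 the supplemented corn oil arrays were low beside fish oil as well. The supplemented fish oil arrays gave 8.47 and 9.64 for Hmox1, 7.90 and 7.72 for Srxn1 and 12.30 and 12.36 for Gpx2, a set picked after the values were seen. The 3 NRF2 target calls ended without deficient replicate 2 and without either supplemented array, and that of Slc7a11 without deficient replicate 1 as well. Those of Mt1 and Gpx2 ended without supplemented replicate 2, and that of Slc39a14 remained without deficient replicate 1 only.

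Single genes of the extracellular matrix and its signals rose or fell, where 1.45% of all named genes rose and 0.303% fell. Both deficient arrays lay above both supplemented arrays in 10 and below in 11 of the 33 signal genes. The counts were 8 and 9 in the 29 matrix genes, against 26.7% and 26.5% of all named genes. Inhba, the activin A subunit, stood at 8.24 and 8.61 on the deficient arrays, against 6.50 and 6.34 on the supplemented arrays (4.02-fold), and Tgfb3 rose by 1.29 ± 0.15. Sfrp2, a secreted modulator of Wnt signals made by stromal cells, fell to 9.01 and 9.33 in the deficient kidneys, against 10.80 and 10.66 in the supplemented kidneys (-1.56 ± 0.26, adjusted p = 0.0302). These were the 3 called of 33 genes of TGF beta, BMP and Wnt signals (median 0.02). Timp1, an inhibitor of matrix proteases, stood at 11.72 and 12.78 on the deficient arrays, against 10.22 and 10.19 on the supplemented arrays (4.14-fold). The aggrecan-cleaving proteases Adamts1 and Adamts4 rose by 1.86 ± 0.18 and 1.43 ± 0.16, and Adamts5 was lower by -0.74 ± 0.14 (adjusted p = 0.0469). Of 29 matrix genes Tagln, a smooth muscle actin-binding protein (1.54 ± 0.16), and Has2, which makes hyaluronan (0.90 ± 0.13), rose, and Mfap4 fell (-1.20 ± 0.21). No fibrillar collagen was among them. The cytoskeletal list held 3 rises of 27 (median 0.49), those of Csrp3, Tubb6 (1.69 ± 0.19) and Actn1 (1.04 ± 0.17). Of the 13 calls in these 4 lists, those of Inhba and Adamts1 remained without supplemented replicate 1, and none remained without supplemented replicate 2.

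Of 14 measured genes of calcium, vitamin D and klotho 1 rose, Fgf23, and 1 fell, Pth1r, with a median of -0.14. Falls were also found in single genes of other tubule lists. Casr, the calcium-sensing receptor of the thick ascending limb, fell to 9.38 and 9.91 in the deficient kidneys, against 10.93 and 11.15 in the supplemented kidneys (-1.40 ± 0.18, adjusted p = 0.0107). Oxgr1, the oxoglutarate receptor of intercalated cells, fell to 9.74 and 10.38 in the deficient kidneys, against 11.39 and 11.55 in the supplemented kidneys. Kcnj10, a basolateral potassium channel of the distal tubule, fell to 8.92 and 9.30 in the deficient kidneys, against 10.05 and 10.30 in the supplemented kidneys. In these 3 genes deficient replicate 1 was the lower pool. Slc9a3, the sodium-proton exchanger of the proximal tubule, fell to 10.67 and 10.65 in the deficient kidneys, against 11.45 and 11.54 in the supplemented kidneys (-0.83 ± 0.12), and Pth1r, the parathyroid hormone receptor, fell by -0.66 ± 0.12 (adjusted p = 0.0456). The channel Kcnj13 (-1.04 ± 0.19) and the inositol phosphatase Inpp5j (-1.18 ± 0.14) were lower too. Phosphate genes were among the rises. Slc34a2, a sodium-phosphate cotransporter better known from intestine and lung, stood at 11.55 and 11.94 on the deficient arrays, against 9.44 and 9.75 on the supplemented arrays (4.44-fold). Fgf23, the bone hormone that makes the kidney excrete phosphate, stood at 7.76 and 7.0 on the deficient arrays, against 5.79 and 5.65 on the supplemented arrays (3.15-fold). Cyp24a1, which inactivates vitamin D, stood at 11.87 and 10.96 on the deficient arrays, against 9.61 and 9.74 on the supplemented arrays, and did not pass (adjusted p = 0.0549). The Slc34a2 call held without each array, while those of Casr, Oxgr1, Inpp5j and Fgf23 ended without either supplemented array. Those of Kcnj10 and Slc9a3 remained in 1 of the 4 fits each, and those of Pth1r and Kcnj13 in none.

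Few members of each tubule segment list passed, though many more lay lower in both pools. Of all named genes 0.303% fell. Of 40 proximal tubule transporters 1 fell (Slc9a3, median -0.25), of 50 proximal enzymes and brush border genes 1 (Acsm3, a mitochondrial acyl-CoA synthetase, -0.84 ± 0.14, median -0.35) and of 13 thick ascending limb genes 1 (Casr, median -0.32). Kcnj10 was the 1 called of 21 distal convoluted and connecting tubule genes (median -0.23) and Oxgr1 the 1 of 21 intercalated cell genes (median -0.22). Of 19 principal cell genes 0 passed (median -0.07), with 5 at an unadjusted p under 0.05 in limma, against 15.2% of all probe sets. The lists before it, in the order given, had 10, 12, 7, 7 and 10 at that p. In them both deficient arrays lay below both supplemented arrays in 20, 29, 9, 13 and 14 members, against 26.5% of all named genes. Both lay above in 3, 1, 2, 2 and 2, against 26.7%. For principal cell genes the counts were 8 below and 4 above. The lists were chosen with earlier results of these data known. None of these lists held a rise. Umod, uromodulin, stood at 13.63 and 13.56 on the deficient arrays, against 13.74 and 13.81 on the supplemented arrays (adjusted p = 0.538). Slc5a2, the glucose carrier of the early proximal tubule, stood at 11.38 and 11.19 on the deficient arrays, against 11.90 and 11.80 on the supplemented arrays (adjusted p = 0.0657). In whole kidney RNA, fewer cells of a type and less RNA per cell cannot be told apart. The 5 calls each ended without either supplemented array, those of Slc9a3 and Acsm3 also without deficient replicate 2 and that of Kcnj10 also without deficient replicate 1.

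Genes that take up, activate and oxidise choline showed no call. Of 32 measured genes of choline uptake and phosphatidylcholine synthesis 0 passed (median -0.01), and of 21 genes of choline oxidation and the methionine cycle 0 passed (median -0.20). Chka, the kinase that starts phosphatidylcholine synthesis, stood at 9.74 and 9.55 on the deficient arrays, against 9.04 and 8.94 on the supplemented arrays, with an adjusted p of 0.0749. Pcyt1a, the rate-limiting enzyme of that synthesis, differed by -0.12 ± 0.15, and the choline carrier Slc44a1 by 0.21 ± 0.15. Chdh, which oxidises choline, stood at 11.22 and 11.05 on the deficient arrays, against 10.52 and 10.69 on the supplemented arrays (adjusted p = 0.267). Bhmt, which uses betaine to remethylate homocysteine, stood at 11.79 and 10.90 on the deficient arrays, against 11.43 and 11.56 on the supplemented arrays, so its pools lay on both sides. Osmolyte genes had 0 of 9 called (median 0.14), fatty acid synthesis 0 of 18 (median -0.20), cholesterol genes 0 of 25 (median -0.04) and the respiratory chain and citrate cycle 0 of 47 (median -0.19). At an unadjusted p under 0.05, limma passed 6 of the 32 choline uptake and phosphatidylcholine genes, 9 of the 21 choline oxidation and methionine genes, 3 osmolyte, 3 fatty acid synthesis, 2 cholesterol and 4 respiratory genes, against 15.2% of all probe sets.

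Single genes of lipid handling and of hormone binding passed. Angptl4, which inhibits lipoprotein lipase and is a target of PPAR alpha, stood at 10.74 and 10.35 on the deficient arrays, against 7.79 and 8.31 on the supplemented arrays (5.65-fold), the 1 called of 40 fatty acid oxidation and PPAR alpha target genes (median -0.19). Lipg, endothelial lipase, fell to 7.75 and 7.21 in the deficient kidneys, against 8.65 and 8.77 in the supplemented kidneys, the 1 called of 24 lipid droplet and triglyceride genes (median -0.16). Slc10a2, the apical bile acid carrier of ileum and proximal tubule, rose by 1.41 ± 0.12. Ch25h, which makes 25-hydroxycholesterol, rose by 1.67 ± 0.21, and Rdh16, a retinol dehydrogenase, fell by -1.20 ± 0.19. Ptgs2, the inducible cyclooxygenase that the macula densa and cortical thick ascending limb express, fell to 9.28 and 8.67 in the deficient kidneys, against 10.33 and 10.28 in the supplemented kidneys, the 1 called of 31 eicosanoid genes. Igfbp1, which binds insulin-like growth factors and is induced in liver by fasting, stood at 13.29 and 12.88 on the deficient arrays, against 9.95 and 10.10 on the supplemented arrays (8.37-fold), the 1 called of 16 genes of that axis. The calls of Angptl4, Igfbp1 and Slc10a2 held without each array, and those of Lipg, Ptgs2, Ch25h and Rdh16 ended without either supplemented array, those of Lipg and Rdh16 also without deficient replicate 2.

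Some macrophage genes were higher, although the defining markers Cd68, Cd163 and Mrc1 were not called. Of 28 macrophage genes 4 rose and none fell (median 0.69), and in 23 both deficient arrays lay above both supplemented arrays, against 26.7% of all named genes. This list too was chosen with earlier results of these data known. Fcgr2b, an inhibitory Fc receptor also found on B cells, stood at 7.93 and 9.54 on the deficient arrays, against 6.06 and 6.11 on the supplemented arrays (6.28-fold). Gpnmb, a glycoprotein of phagocytes, stood at 9.50 and 10.05 on the deficient arrays, against 7.53 and 7.84 on the supplemented arrays (4.27-fold). Cd14 and Lyz2 rose by 1.55 ± 0.15 and 1.08 ± 0.20. The defining marker Cd68 stood at 9.58 and 10.26 on the deficient arrays, against 8.85 and 8.93 on the supplemented arrays, and did not pass (adjusted p = 0.0551), and Cd163 and Mrc1 differed by 0.21 ± 0.21 and 0.32 ± 0.22. The summed linear intensity of the macrophage list was 30678 and 39668 on the deficient arrays, against 22589 and 23203 on the supplemented arrays. It moved with the chemokine and cytokine rises above, and its part in them was not tested. None of the 16 neutrophil genes passed (median 0.38). In 12 of them both deficient arrays lay above both supplemented arrays, and in 3 both lay below. Itgb2 differed by 1.26 ± 0.24 (adjusted p = 0.0509) and Trem1 by 2.08 ± 0.40 (adjusted p = 0.0551), while Mmp9 differed by -1.17 ± 0.24 (adjusted p = 0.0663). The sum of the list, with Mmp9 in it, was 2382 and 3146 on the deficient arrays, against 2143 and 2456 on the supplemented arrays, and overlapped between groups. Lymphocyte (0 of 20), erythroid (0 of 13), adipocyte (0 of 13), podocyte (0 of 12) and endothelium lists (0 of 18) held no call. At an unadjusted p under 0.05, limma passed 6, 5, 0, 1 and 4 of them, and 7 of the 16 neutrophil genes, against 15.2% of all probe sets. The interferon response had 0 of 30 called and 3 at an unadjusted p under 0.05, against the same 15.2%. The adrenal list held 1 call of 13, Cyp11a1 (0.82 ± 0.13). No value on these arrays is 0, the lowest of the macrophage and neutrophil markers being 4.49 and 3.58. Of the 4 macrophage calls, Cd14 alone remained without supplemented replicate 1 and Gpnmb alone without supplemented replicate 2.

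The 2 deficient pools were not alike. Between them 488 probe sets differed by 2-fold or more, 320 higher in replicate 2 and 168 higher in replicate 1, against 166 that differed between the supplemented pools. Among the named calls the gap was mostly small, with a median size of 0.27 in the rises, and 7 differed by at least 2-fold. Higher in replicate 1 were Csrp3, a muscle LIM protein, at 10.48 and 8.29, and Rnd1 at 9.76 and 8.42. Higher in replicate 2 were Havcr1, Tgm1 (a transglutaminase, 8.47 and 9.97), Fcgr2b, Clu and Timp1. All 4 supplemented values of Csrp3 and Tgm1 lay between 6.07 and 6.54, below either deficient pool. Further genes leaned toward 1 pool. The inflammatory and early genes Il6, Irf1, Rgs16 and Gadd45b and the hormones Fgf23 and Guca2a were among the 10 calls with the largest gap toward replicate 1. Il24, Glycam1, Fgg, Olr1 and Cldn4, a tight junction claudin, were among the 10 with the largest gap toward replicate 2.

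**Figure D2:**
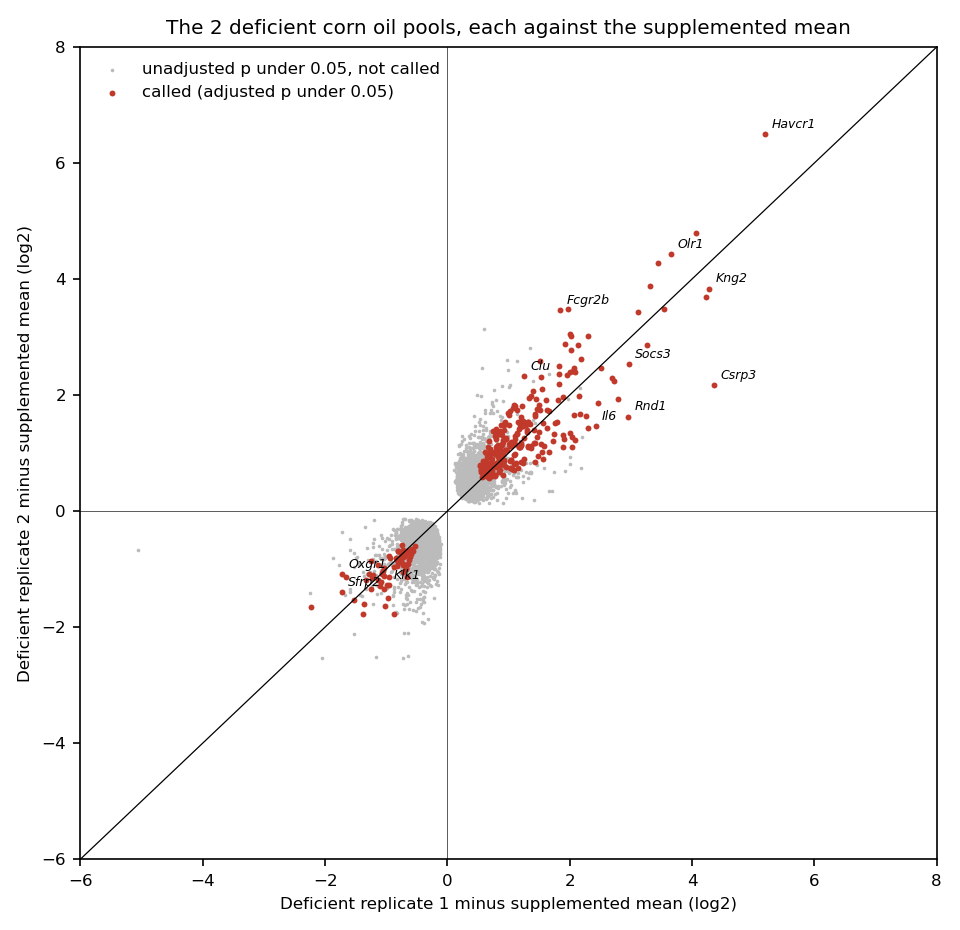
Difference of deficient replicate 1 (x axis) and of deficient replicate 2 (y axis) from the mean of the 2 supplemented arrays (log2), for probe sets with an unadjusted p under 0.05, with called ones in red and the line of equality in black. Csrp3 and Rnd1 lie below the line and Havcr1, Fcgr2b and Clu above it.

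Gene lists showed the same unevenness. Proximal tubule transporters had a median difference from the supplemented mean of -0.05 in replicate 1 and -0.47 in replicate 2, and proximal enzymes of -0.08 and -0.54. The choline oxidation and methionine cycle list gave -0.03 in replicate 1 and -0.44 in replicate 2, and the respiratory chain -0.06 and -0.31. Immediate early genes gave 0.85 in replicate 1 and 0.65 in replicate 2, and macrophage genes 0.50 and 0.86. These proximal, choline oxidation and respiratory lists were near the supplemented level in replicate 1 and below it in replicate 2, while immediate early and macrophage genes were high in both. Cell cycle genes, a list chosen with earlier results of these data known, were at -0.22 and -0.47. Of these, 28 of 47 lay below both supplemented arrays in both pools, against 26.5% of all named genes. Limma called 0 of them and gave 20 an unadjusted p under 0.05, against 15.2% of all probe sets. Bub1, a mitotic checkpoint kinase, stood at 6.98 and 6.12 on the deficient arrays, against 7.80 and 7.47 on the supplemented arrays (adjusted p = 0.185).

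**Figure D3:**
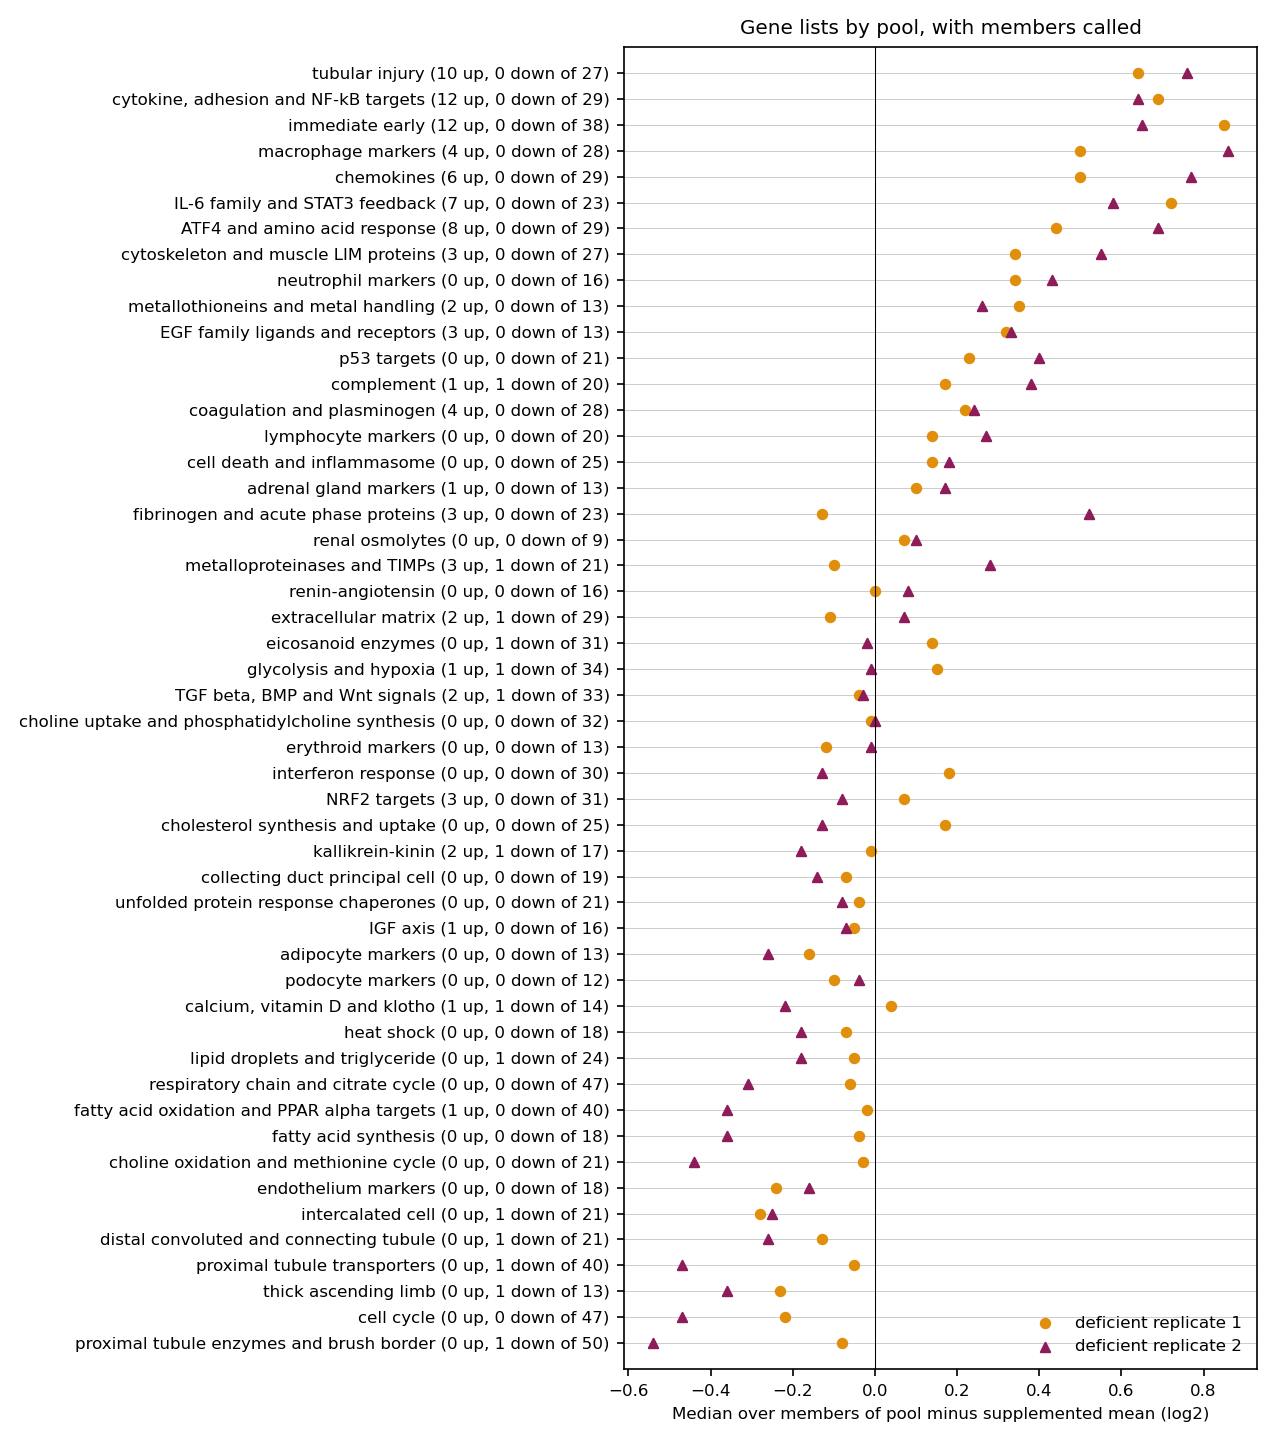
Median over list members of each deficient array minus the supplemented mean (x axis, log2) for 50 gene lists, ordered by the median difference of both pools, with circles for replicate 1 and triangles for replicate 2 and the number of members called higher and lower beside each name. Immediate early genes (0.85 and 0.65) and tubular injury genes (0.64 and 0.76) are high in both pools, and the proximal tubule lists lie near 0 in replicate 1 and at -0.47 and -0.54 in replicate 2.

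The necrotic kidneys, on the same diet, differed further from the deficient kidneys. This comparison shares the deficient arrays with the one above, and 2860 of 29214 probe sets passed (9.79%), 1376 higher (4.71%) and 1484 lower (5.08%). Of the 217 named rises, 43 were called higher again in necrotic kidneys, 21 were called lower and 153 were not called. Of the 44 named falls, 16 were called lower again, 4 were called higher and 24 were not called. The genes named next were taken from those called in both comparisons. Gpnmb stood at 11.98 and 12.14 on the necrotic arrays, against 9.50 and 10.05 on the deficient arrays (2.28 ± 0.22, adjusted p = 0.000812). Ccl3 stood at 10.74 and 10.60 on the necrotic arrays, against 8.43 and 8.75 on the deficient arrays. Hmox1 stood at 11.79 and 11.46 on the necrotic arrays, against 9.23 and 9.95 on the deficient arrays. These genes, higher in deficient than in supplemented kidneys, were higher again in necrotic ones. Rbm3, a cold-inducible RNA-binding protein, Slc7a11, Ccl6, Gda, Pla1a, C3h15orf48 and Fblim1 also rose in necrotic kidneys, by between 1.42 and 1.84.

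Other genes were lower in the necrotic than in the deficient kidneys. Klk1 stood at 7.47 and 7.99 on the necrotic arrays, against 11.67 and 11.37 on the deficient arrays (-3.79 ± 0.19, adjusted p = 4.14e-05), and Acsm3 at 6.37 and 6.22 on the necrotic arrays, against 10.26 and 9.94 on the deficient arrays. Both differed less between deficient and supplemented kidneys, by -1.13 and -0.84. Oxgr1, Rdh16, Kcnj13, Lipg and Slc9a3 fell too, with differences between -2.41 and -1.80. Kng2, Csrp3 and Fcnb had their highest levels in the deficient kidneys. Kng2 stood at 9.03 and 8.54 on the necrotic arrays, against 11.35 and 10.90 on the deficient arrays (-2.34 ± 0.23), with 7.10 and 7.03 on the supplemented arrays. Csrp3 stood at 6.96 and 6.50 on the necrotic arrays, against 10.48 and 8.29 on the deficient arrays. Fcnb stood at 8.67 and 8.37 on the necrotic arrays, against 10.20 and 10.87 on the deficient arrays, and its supplemented values were 8.32 and 8.41. Havcr1 stood at 13.24 and 13.53 on the necrotic arrays, against 11.82 and 13.11 on the deficient arrays (adjusted p = 0.43). Deficient replicate 2 was the nearer of the 2 deficient pools to the necrotic mean in 141 of the 217 named rises and 26 of the 44 named falls, where it was the nearer in 59.6% of all probe sets. The count of 2860 was 1040 without deficient replicate 1, 1798 without necrotic replicate 1 and 1312 without necrotic replicate 2.

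**Figure D4:**
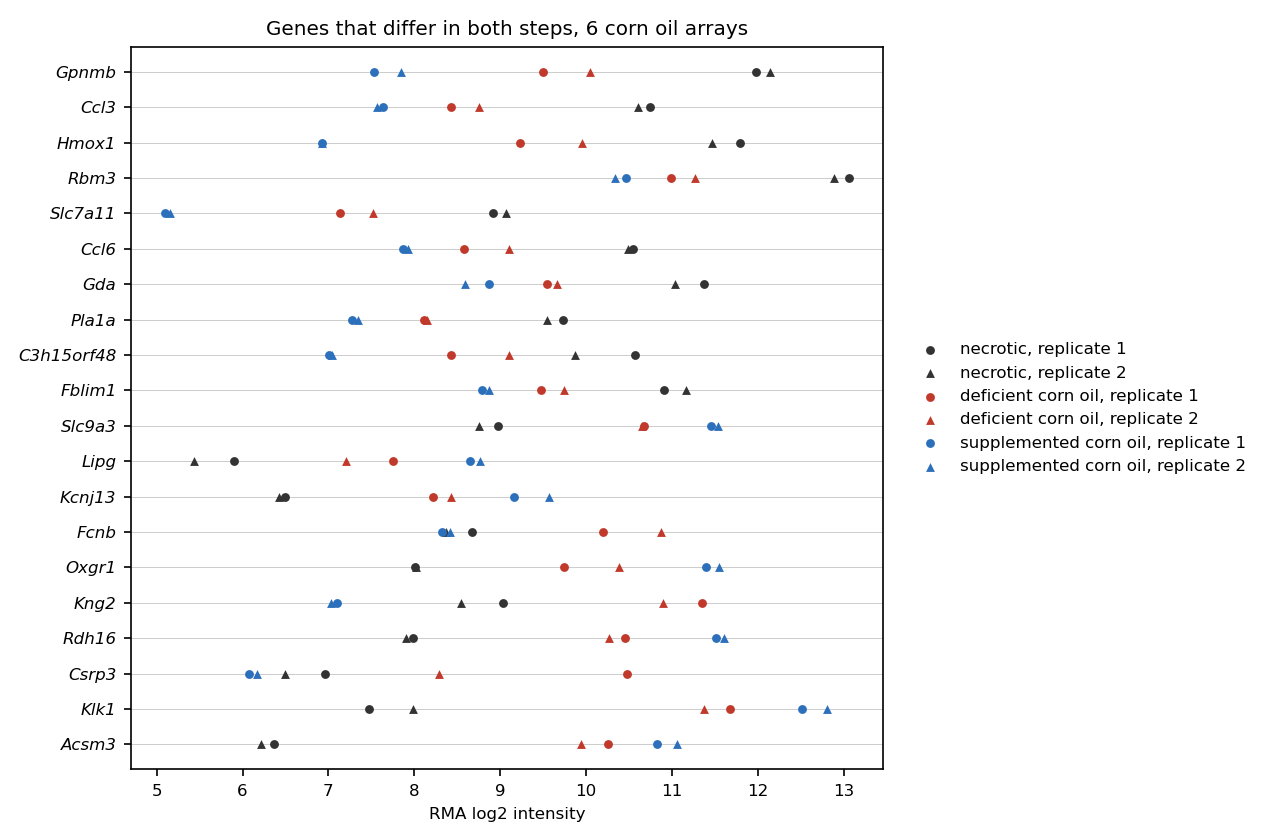
RMA log2 intensity (x axis) of the 10 rises and 10 falls of largest size in necrotic against deficient kidneys, among probe sets also called in deficient against supplemented kidneys. Black points are necrotic, red deficient and blue supplemented corn oil arrays, and Kng2, Csrp3 and Fcnb have their highest values on the deficient arrays.

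Under fish oil the leading genes of the corn oil comparison differed less between deficient and supplemented kidneys, and for 28 probe sets the corn oil difference was significantly the higher. These comparisons share the corn oil arrays. The interaction, the corn oil difference minus the fish oil difference, passed for 30 of 29214 probe sets (0.103%), 28 in that direction (0.0958%) and 2 in the other (0.00685%). Kng2 stood at 7.67 and 7.26 on the deficient fish oil arrays, against 7.06 and 7.44 on the supplemented fish oil arrays, and the interaction was 3.85 ± 0.33 (adjusted p = 0.00826). Olr1 stood at 6.50 and 6.17 on the deficient fish oil arrays, against 6.17 and 6.06 on the supplemented fish oil arrays. Fga stood at 9.69 and 9.29 on the deficient fish oil arrays, against 8.84 and 9.0 on the supplemented fish oil arrays. In Kng2 the fish oil groups overlapped, in Olr1 they touched at 6.17, and in Fga they differed by 0.57, against 3.52 under corn oil. Havcr1 stood at 9.30 and 7.22 on the deficient fish oil arrays, against 6.49 and 6.37 on the supplemented fish oil arrays, and its interaction did not pass (adjusted p = 0.184). Over the 217 named rises the median fish oil difference was 0.07, with both deficient fish oil arrays above both supplemented ones in 54, against 14.7% of all probe sets. Over the 44 named falls it was 0.05, with both below in 4, against 17.0%, and both above in 14, against 14.7%.

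For some genes the interaction rested in part on the supplemented levels. Igfbp1 stood at 11.78 and 11.29 on the deficient fish oil arrays, against 11.40 and 11.47 on the supplemented fish oil arrays, all above the supplemented corn oil values of 9.95 and 10.10. Angptl4 stood at 10.40 and 10.22 on the deficient fish oil arrays, against 10.11 and 9.87 on the supplemented fish oil arrays, close to the deficient corn oil values of 10.74 and 10.35. Npy, a neuropeptide, stood at 7.87 and 7.76 on the deficient fish oil arrays, against 8.68 and 8.99 on the supplemented fish oil arrays, the opposite direction to corn oil, where it rose by 1.00 ± 0.16. Prima1, which anchors acetylcholinesterase, was lower by -1.08 ± 0.15 under corn oil and stood at 8.82 and 8.61 on the deficient fish oil arrays, against 7.98 and 8.23 on the supplemented fish oil arrays (interaction -1.69 ± 0.21). In the limma fits without 1 of the 4 supplemented arrays, corn or fish oil, the count of interactions was 0, with between 1672 and 3179 probe sets at an unadjusted p under 0.05. It was 90 without deficient corn oil replicate 1 and 7 without deficient fish oil replicate 2.

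**Figure D5:**
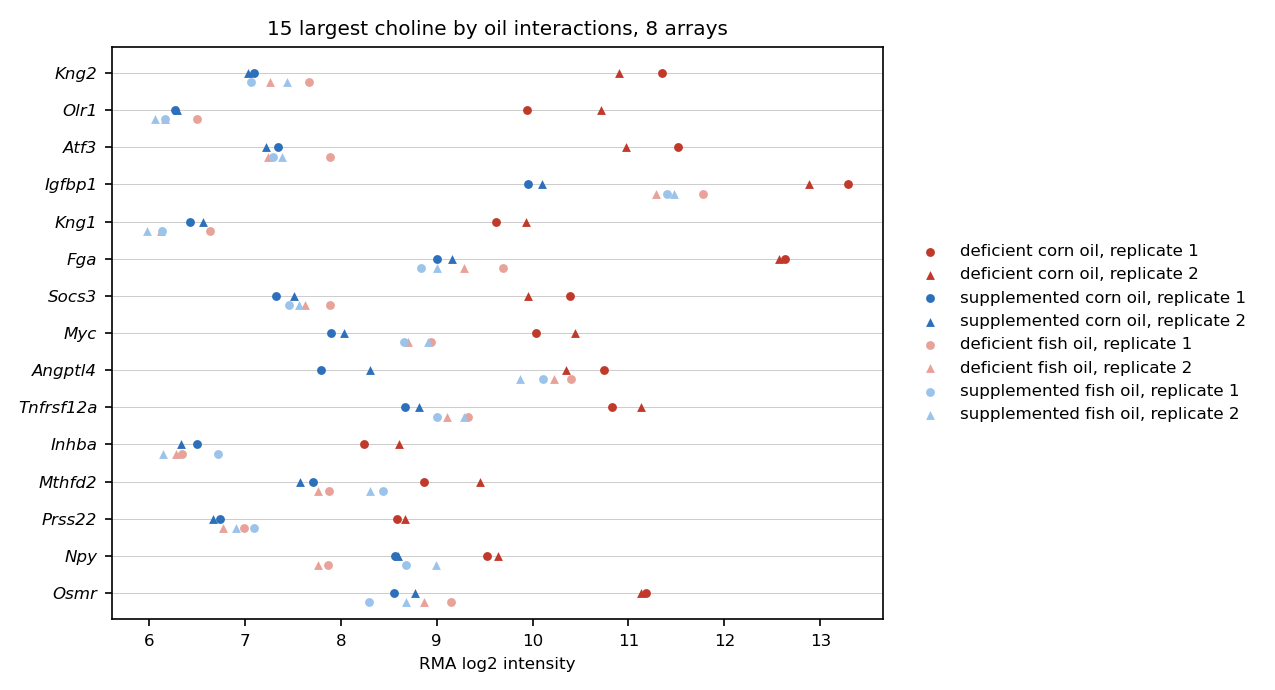
RMA log2 intensity (x axis) of the 15 genes with the largest called choline by oil interaction, with deficient (red) and supplemented (blue) corn oil arrays on the upper line of each gene and deficient (pale red) and supplemented (pale blue) fish oil arrays below it. The deficient corn oil arrays lie to the right of the fish oil arrays in all but Angptl4, where deficient corn oil replicate 2 (10.35) lies between the deficient fish oil arrays.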

How the data were processed

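Total kidney RNA of 10 pools was measured on 1-colour arrays. The deposited values are log2 intensities that the authors made with RMA (background correction, quantile normalization and probe set summary), per the submitters' processing notes. For their software, version, probe set definition and genome build, the sources used here give no statement. They ran between 1.62 and 14.72, with array medians of 7.28 to 7.43. With 2 arrays a group, precision is limited by that number.

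All 29214 probe sets were fitted with limma 3.58.1 (R 4.3.3; lmFit, contrasts, eBayes), with 1 mean for each of the 5 groups, 5 residual and 3.59 prior degrees of freedom and Benjamini-Hochberg adjustment over all probe sets. Adjusted p-values throughout are from this model. Errors are moderated standard errors (n = 2 pools a group). The fit was tested on simulated data. Platform annotation listed 15633 probe sets, of which 15310 had 1 symbol and 323 several, and 13581 were not listed. Of those with 1 symbol 15279 matched RefSeq (GRCr8) by Entrez identifier. A gene in a list was represented by its probe set of highest mean (527 genes had more than 1). Genes named were the largest rises and falls, called list members, those differing most between pools or in the necrotic and fish oil contrasts, and fixed markers, with uncalled list members of known role given as values. The members and lists were chosen with earlier results of these data known. Motifs were searched with Python 3.11.15 in the RefSeq promoters. Alternatives were low-intensity filters, other scalings, other priors, fewer arrays, a replicate block and leaving out each array. No array was excluded.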

Additional observations from a re-analysis of the deposited data

Results flagged for a closer look

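The corn oil difference departed from the fish oil difference in 30 probe sets, by limma's test of the choline by oil interaction over all 10 arrays. The 15 named genes of greatest size are given as log2 interactions, the corn oil difference minus the fish oil difference. Kng2 gave 3.85, Olr1 3.82, Atf3 3.74, Igfbp1 2.96, and both Kng1 and Fga 2.95. Socs3 gave 2.51, Myc 2.24, Angptl4 2.18, Tnfrsf12a 2.16 and Inhba 2.13. Mthfd2 gave 2.07, Prss22 2.06, Npy 2.02 and Osmr 1.97. The Mthfd2 value is that of the probe set with the larger corn oil rise (1.52), and the probe set of higher mean level (corn oil rise 1.33) gave 1.84 without passing (adjusted p = 0.0651). Each group held 2 arrays, too few to test single arrays as outliers.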

How the results depend on the processing

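For deficient minus supplemented kidneys the 330 calls became 464 and 542 with probe sets under the 25th and 50th percentile of mean level left out, 540 with a trended robust prior, 82 with only the 4 arrays compared and 255 with a replicate block, and other scalings gave 307 to 338. Leaving out 1 array gave 32 (without supplemented replicate 2) to 714 (without deficient replicate 1), with 40 without supplemented replicate 1 and 146 without deficient replicate 2. For necrotic minus deficient kidneys the 2860 calls became 654 with only the arrays compared and 2678 with the replicate block, and leaving out 1 array gave 1040 to 3125, with 1798 and 1312 without necrotic replicates 1 and 2. The 30 interactions became 61 and 87 under the filters, 67 with the trended robust prior, 14 with only the arrays compared and 11 with the replicate block, and leaving out 1 array gave 0 to 90. The cause was not tested, beyond the fewer arrays or fewer probe sets that these fits hold. The labels give no pairing by replicate number, and deviations of same-numbered arrays correlated at -0.077 between deficient and supplemented corn oil kidneys, at 0.118 between deficient and supplemented fish oil kidneys and between -0.173 and 0.136 over all pairs of groups. No named gene with a call changed direction in the settings run, but most of these settings could not have turned one. In all 330 calls both deficient arrays lay on the same side of both supplemented arrays, so leaving out 1 array keeps the sign. The filters, the other prior, the fit of only the arrays compared and the replicate block leave the difference of group means unchanged. Only the other scalings could have changed a direction. Aqp2, not called, differed by -0.01 and turned to 0.01 without deficient replicate 1.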

Other observations

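Further rises lay outside the gene lists, and the ones given here were chosen after their values were seen. Rasd1, a glucocorticoid-induced Ras protein, stood at 10.78 and 10.30 on the deficient arrays, against 8.09 and 8.03 on the supplemented arrays (2.48 ± 0.30). Pvr, a nectin-like adhesion receptor, stood at 10.30 and 11.05 on the deficient arrays, against 8.24 and 8.30 on the supplemented arrays (2.40 ± 0.26). The transcription factors Runx1 (1.38 ± 0.15), Elf3 (1.28 ± 0.19) and Nfil3 (1.21 ± 0.19) rose too. Genes that leukocytes express were among these rises, with Lcp1, an actin bundler, at 1.34 ± 0.13, the phagosome metal transporter Slc11a1 at 1.44 ± 0.20 and the glucan receptor Clec7a at 1.43 ± 0.23. Without supplemented replicate 1 the call of Lcp1 alone among these genes remained, and without supplemented replicate 2 none did.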
